A study of Homo sapiens with 6 samples.

Results

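The genes described here belong to families of amino acid transporters of the plasma membrane and of the lysosome. Some members carry other substrates, such as creatine, betaine or dopamine, and the SLC3 members are heavy chains that pair with SLC7 carriers. All are called transporter genes here. The genes were taken by symbol, as the protein-coding genes of solute carrier families SLC1, SLC3, SLC6, SLC7, SLC36, SLC38 and SLC43. The rule gave 56 genes of the 34036 in the count table, 17691 of which are protein-coding. The cells were HepG2, a human liver cancer line that keeps many hepatocyte transcripts. In the siControl group, 3 cultures received a non-targeting siRNA, and in the siDGUOK group, 3 cultures received a pool of siGENOME siRNAs against DGUOK, the mitochondrial kinase that phosphorylates purine deoxynucleosides. All 6 cultures were transfected with Lipofectamine RNAiMAX in serum-containing Eagle's minimum essential medium, and RNA was taken for sequencing at 48 h. The siRNAs to DGUOK were used as a pool, so values for separate siRNAs were not analysed here.

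Cells take up and exchange amino acids through carriers that differ in the residues they accept, in the ions that drive them and in the membrane they serve. SLC7 light chains reach the plasma membrane as disulfide-linked pairs with a glycoprotein heavy chain of the SLC3 family, SLC1 and SLC38 carriers move neutral or anionic residues with sodium, and SLC36 and several SLC38 carriers work at the lysosome. In the liver these carriers supply glutamine and alanine for nitrogen handling and cystine for glutathione, and several of their genes are transcribed by ATF4 when the kinase GCN2 senses uncharged tRNA.

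The libraries held 19065684, 18915508 and 10527216 gene counts in siControl replicates 1, 2 and 3 and 18613138, 15978314 and 21334876 in siDGUOK replicates 1, 2 and 3. Values are given as CPM, counts scaled to a common library size with TMM, for comparing libraries, and as TPM, which also divides by exon length, for comparing genes. DGUOK itself (ENSG00000114956.19, chromosome 2, 73926826 to 73958961, plus strand) was read first as a check of the labels, because the treatment field names the control siRNA in all 6 samples. Its level was 54.4, 53.1 and 48.2 CPM in siControl replicates 1, 2 and 3 and 9.08, 10.5 and 6.72 CPM in siDGUOK replicates 1, 2 and 3. The groups did not overlap, and the log2 fold change was −2.57 (SE 0.19, edgeR quasi-likelihood test with Benjamini-Hochberg adjusted p = 1.64e-08).

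Of the 10 hepatocyte markers examined, all 10 were tested, ALB was the most abundant, and 9 were called lower in siDGUOK cells. Their summed level was 54118, 48232 and 47272 CPM in siControl replicates 1, 2 and 3 and 27960, 24434 and 22928 CPM in siDGUOK replicates 1, 2 and 3. Every siDGUOK library thus held fewer hepatocyte marker transcripts than every siControl library; in bulk RNA, fewer cells of a type and less RNA per cell cannot be told apart. Of the 5 cholangiocyte markers, led by KRT19, 2 were called higher and 1 lower, with summed levels of 1703, 1827 and 1891 CPM in siControl replicates 1, 2 and 3 and 3529, 3629 and 3749 CPM in siDGUOK replicates 1, 2 and 3. The 5 stellate cell and fibroblast markers, led by ACTA2, had 1 call higher and 1 lower among 4 tested and summed to 44.2, 41.6 and 36.5 CPM in siControl replicates 1, 2 and 3 and 68.8, 74.6 and 47.5 CPM in siDGUOK replicates 1, 2 and 3. COL1A1, called higher, went from 1.17 ± 0.752 to 19.4 ± 1.75 CPM (SD, n = 3), PDGFRB was called lower and ACTA2 overlapped between the groups. The part of these marker differences in the transporter results was not tested.

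A pair of siDGUOK libraries stood apart from the rest. In siDGUOK replicate 1, 21057 genes had a count, against 16205 to 17583 in the other 5 libraries, and 2645 genes were counted in that library alone. It also held 109877 counts on the 173 T cell receptor genes, which were looked at after the values were seen. That was 0.590% of its counts, against 16, 37 and 33 counts on these genes in siControl replicates 1, 2 and 3, 1333 in siDGUOK replicate 2 and 73 in siDGUOK replicate 3. In both siDGUOK replicates 1 and 2, but not in replicate 3, the fibroblast collagens COL1A2 and COL3A1 were above the other libraries. COL1A2 was at 6.7 and 10.4 CPM and COL3A1 at 7.997 and 15.6 CPM there, against at most 0.748 and 0.414 CPM in the other 4. In siDGUOK replicate 2 the 4 endothelial markers in the table summed to 56.2 CPM, against 1.39 to 4.05 CPM in the other libraries, with VWF the most abundant and STAB2 at 0. The 6 leukocyte and Kupffer cell markers, led by PTPRC, with MARCO at 0, summed to 12.4 CPM there and to 2.77 to 6.55 CPM elsewhere. No endothelial or leukocyte marker was called in edgeR's test, STAB2 and 2 leukocyte markers had too few counts to test, CLEC4G was not in the table, and their part in the transporter results was not tested.

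Among the transporter genes, 5 rose and 4 fell in siDGUOK cells. The genes that rose were SLC7A11, SLC1A5, SLC38A1, SLC3A2 and SLC1A4, and those that fell were SLC38A11, SLC38A4, SLC1A2 and SLC38A3. These calls came from edgeR's quasi-likelihood test over 14476 genes and needed a Benjamini-Hochberg adjusted p below 0.05 together with a log2 fold change beyond 0.5 in either direction. Counts were too low for 22 of the 56 transporter genes, so 34 were tested, and each of these 34 reached the count filter in at least 2 libraries of each group. The 9 calls are 26.5% of the 34, where 14.1% of all genes tested were called, 7.42% higher and 6.68% lower. At the adjusted p alone 14 transporter genes passed (41.2%), against 19.7% of all genes tested. The siControl and siDGUOK libraries did not overlap for 16 of the 34, or 47.1%, against 36% of all genes tested. The median log2 fold change was −0.13 over the 34 and 0.02 over all genes tested, and calls lay on both sides of it. With a library left out, the transporter median ran from −0.24 (without siDGUOK replicate 3) to −0.11 (without siControl replicate 1). Without siDGUOK replicate 1 there were 10 transporter calls, 4 higher and 6 lower, and without siDGUOK replicate 2 there were 11, 5 higher and 6 lower; over all genes these fits gave 1882 and 1821 calls, against 2041 with all libraries.

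**Figure D1:**
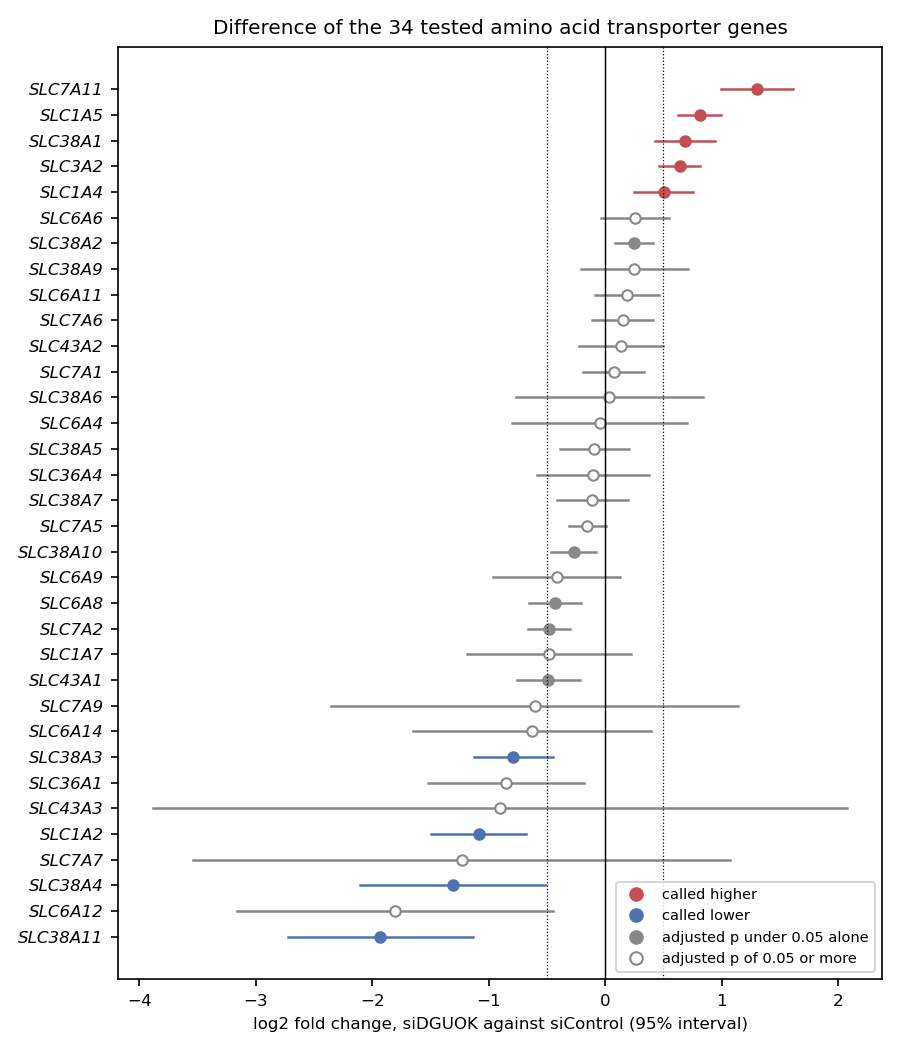
Log2 fold change of the 34 tested amino acid transporter genes, siDGUOK against siControl, with 95% confidence intervals from edgeR's quasi-likelihood fit of 3 libraries per group; dotted lines mark the threshold of 0.5, red points are called higher, blue points called lower and open points missed the adjusted p. SLC7A11 lies farthest to the right at 1.30 and SLC38A11 farthest to the left at −1.93, and wide intervals such as that of SLC43A3 belong to genes with few counts.

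Promoter sequences of the transporter genes are shown because 5 of these genes rose, and they were read for the letters of the amino acid response element core, TGATGNAA, on both strands. This element is the DNA sequence through which ATF4 and its partners act at genes of the amino acid response. RefSeq promoter windows of GRCh38.p14, 250 bases before to 50 after each start, were given for 42 of the 56 genes and for 27 of the 34 tested. Of those 27 genes 5 had a match, SLC1A4, SLC1A5, SLC38A1, SLC3A2 and SLC7A1, whereas 2.86% of the 9731 tested protein-coding genes with a window and 3.62% of all 35116 windows had one. The 30 bases around each match are shown, 5′ to 3′ on the strand of the gene, with the match in capitals.
SLC1A4: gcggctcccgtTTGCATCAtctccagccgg
SLC1A5: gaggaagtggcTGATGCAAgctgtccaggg
SLC38A1: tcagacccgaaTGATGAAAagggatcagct
SLC3A2: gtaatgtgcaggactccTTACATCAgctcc
SLC7A1: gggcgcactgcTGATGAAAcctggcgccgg

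The SLC1A4 window is chr2:64989381-64989410, on the plus strand, and its match begins at −7 from 1 of 2 annotated starts and reads in the reverse direction. The SLC1A5 window, chr19:46784893-46784922 on the minus strand, has its match at −97 from 1 of the 3 annotated starts. In SLC38A1, chr12:46266502-46266531 on the minus strand, the match begins at −4 from 1 of 2 starts. The SLC3A2 window, chr11:62881719-62881748 on the plus strand, has a reverse match at 38 from 1 of 3 starts, and that of SLC7A1, chr13:29595663-29595692 on the minus strand, has a match at 8 from its only annotated start. SLC7A1 was not called in the test, and SLC7A11 and SLC38A3 had no entry. The antioxidant response element core, TGACNNNGC, was also searched on both strands and was found in 6 of the 27 tested genes, close to the 19.6% of the 9731 genes with a window, and no printed window holds it in full. A match is a string of letters and not a measured binding site.

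Per exon length, the most abundant transporter transcript was SLC38A2, a sodium-coupled carrier of small neutral residues, at a mean of 894 TPM over the 6 libraries. The glutamine exchanger SLC1A5 followed at 509.8 TPM, then the large neutral residue exchanger SLC7A5 at 335, the creatine carrier SLC6A8 at 249 and the heavy chain SLC3A2 at 211 TPM. In siControl cells the means of SLC1A5 and SLC7A5, 372 ± 46.1 and 355 ± 21.8 TPM (SD, n = 3), differed by less than that spread, and SLC7A5 was the higher in siControl replicate 2. These 5 stood well above the next group, in which SLC7A2 had 99.9 TPM, SLC38A10 84.1 TPM and SLC43A1 82.95 TPM. SLC38A10 and SLC43A1 differed by less than the spread between libraries, as did SLC38A1 at 52.5 TPM and SLC7A1 at 48.5 TPM, next in the order. The order of these means differed between the groups for SLC6A8 and SLC3A2, with mean levels of 287 and 166 TPM in siControl cells and 211 and 256 TPM in siDGUOK cells. It differed for SLC38A10 and SLC43A1, with 92.4 and 97.2 TPM in siControl cells and 75.7 and 68.7 TPM in siDGUOK cells. The same held for SLC38A1 and SLC7A1, with 40.5 and 47.5 TPM in siControl cells and 64.5 and 49.5 TPM in siDGUOK cells. Summed over the 56 genes, transporter TPM was 2853, 2609 and 2792 in siControl replicates 1, 2 and 3 and 3270, 2945 and 3038 in siDGUOK replicates 1, 2 and 3. The sum was higher in every siDGUOK library than in every siControl library. SLC1A5 made up 14.02, 12.2 and 14.3% of it in the siControl libraries and 21.1, 20.4 and 21.4% in the siDGUOK libraries. SLC38A2 made up 30.4, 30.1 and 29.1% and 33.04, 31.5 and 29.5% in the same order, so its share overlapped between the groups and that of SLC1A5 did not.

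**Figure D2:**
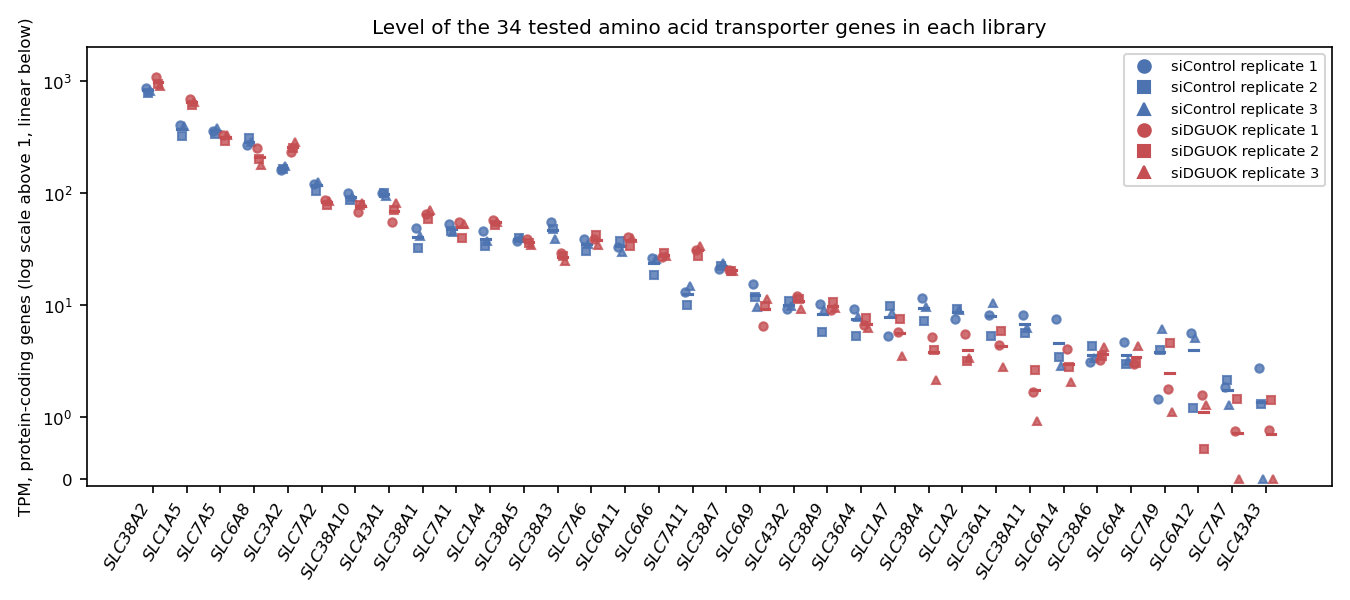
Level of the 34 tested amino acid transporter genes in TPM over protein-coding genes, on an axis that is logarithmic above 1 and linear below, in 3 siControl (blue) and 3 siDGUOK (red) libraries; short lines are group means and genes are ordered by their mean over the 6 libraries. SLC38A2 leads in all 6 libraries, and SLC1A5 and SLC3A2 lie higher in every siDGUOK library than in every siControl library.

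SLC3A2, the heavy chain known as 4F2hc or CD98hc (ENSG00000168003.16, chromosome 11, 62856004 to 62888880, plus strand), carries several SLC7 light chains to the cell surface. Its level was 265, 268 and 281 CPM in siControl replicates 1, 2 and 3 and 379, 416 and 471 CPM in siDGUOK replicates 1, 2 and 3. The lowest siDGUOK library lay above the highest siControl library, and the log2 fold change was 0.64 (SE 0.08, edgeR quasi-likelihood test with Benjamini-Hochberg adjusted p = 2.13e-05). SLC7A11 (ENSG00000151012.13, chromosome 4, 138164097 to 138242349, minus strand) is the light chain of system xc-, which imports cystine in exchange for glutamate. It stood at 32.4, 24.9 and 35.9 CPM in siControl replicates 1, 2 and 3 and 77.1, 68.8 and 83.4 CPM in siDGUOK replicates 1, 2 and 3. The siDGUOK libraries all lay above the siControl libraries, with siControl replicate 2 the lowest, and the log2 fold change of 1.30 (SE 0.15, edgeR quasi-likelihood test with Benjamini-Hochberg adjusted p = 3.54e-06) was the largest rise among the transporters. Of its exon bases, 8.97% are shared with the antisense gene SLC7A11-AS1, and the counting as stated ignored strand.

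SLC7A5, the leucine and large neutral residue exchanger LAT1, was the most abundant light chain and did not pass the test. Its level was 433, 410.4 and 452 CPM in siControl replicates 1, 2 and 3 and 406, 361 and 398 CPM in siDGUOK replicates 1, 2 and 3. The siDGUOK libraries all lay below the siControl libraries by a small margin, with a log2 fold change of −0.15 (SE 0.08, edgeR quasi-likelihood test with Benjamini-Hochberg adjusted p = 0.185) and a 95% interval of −0.32 to 0.01. Without siDGUOK replicate 2 the log2 fold change of SLC7A5 was −0.10. Of its exon bases 5.69% overlap another annotated gene, and its pseudogene copy SLC7A5P1 had no count in any library. SLC7A6, an exchanger of cationic and neutral residues, was at 75.3, 59.99 and 67.5 CPM in the siControl libraries and 75.6, 82.9 and 66.6 CPM in the siDGUOK libraries, which overlapped, and 55.6% of its exon bases are shared with other genes. Summed over the light chain genes SLC7A5, SLC7A6, SLC7A7, SLC7A8, SLC7A10 and SLC7A11, TPM was 409, 377 and 429 in the siControl libraries and 401, 363 and 394 in the siDGUOK libraries. Those sums overlapped between the groups. The ratio of SLC3A2 TPM to this sum was 0.395, 0.429 and 0.409 in the siControl libraries. In the siDGUOK libraries it was 0.574, 0.692 and 0.728, with no overlap. Its size rests on annotated exon lengths, 6392 bases for SLC3A2 and 4764 for SLC7A5, which may differ from the transcripts present. Only the difference between groups is read from it. SLC7A11 made up 3.202, 2.65 and 3.46% of light chain TPM in the siControl libraries and 7.74, 7.58 and 8.56% in the siDGUOK libraries, and SLC7A5 86.7, 88.4 and 87.99% and 82.4, 80.4 and 82.6%. These sums and shares are descriptions of transcripts and were not tested; light chain proteins were not measured here.

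**Figure D3:**
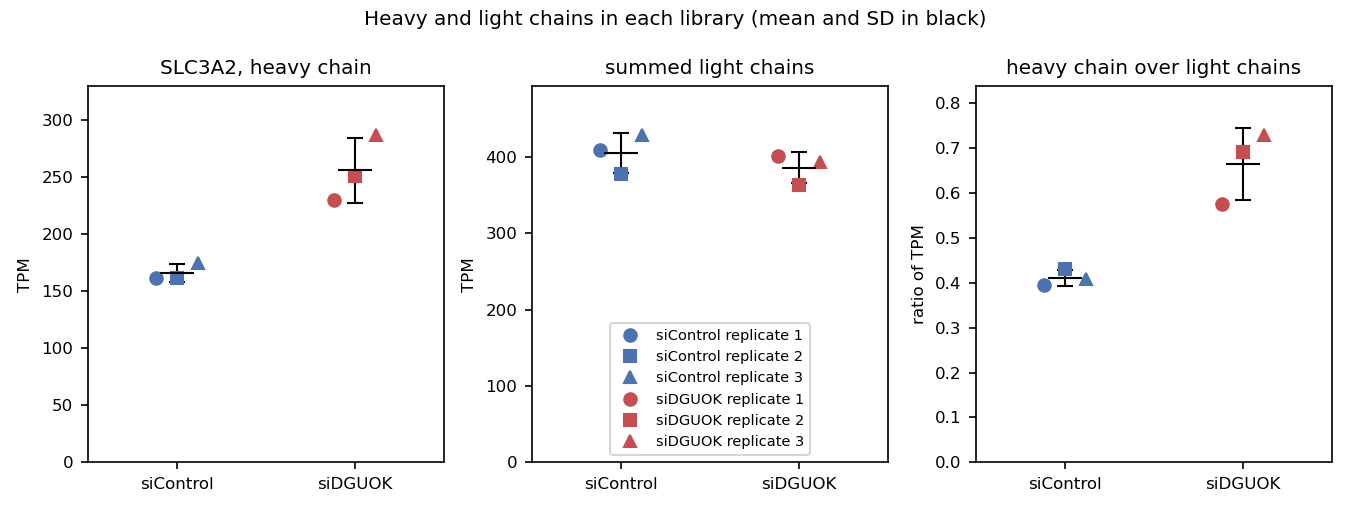
TPM of the heavy chain SLC3A2 (left), summed TPM of its light chains SLC7A5, SLC7A6, SLC7A7, SLC7A8, SLC7A10 and SLC7A11 (middle) and the ratio of the former to the latter (right) in each library, with the group mean and SD (n = 3) in black. SLC3A2 and the ratio are higher in each siDGUOK library than in each siControl library, whereas the light chain sums overlap.

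The SLC7 family also holds the cationic residue carriers, which work without a heavy chain. SLC7A1, the widely expressed arginine and lysine carrier, was at 104, 90.2 and 86.4 CPM in siControl replicates 1, 2 and 3 and 110.2, 79.7 and 105 CPM in siDGUOK replicates 1, 2 and 3. The groups overlapped, and the log2 fold change was 0.07 (SE 0.12, edgeR quasi-likelihood test with Benjamini-Hochberg adjusted p = 0.767). With a library left out it lay between −0.04 without siDGUOK replicate 1 and 0.20 without siDGUOK replicate 2. SLC7A2, the form known from liver, was at 246, 215 and 248 CPM in siControl replicates 1, 2 and 3 and 176, 161 and 170.3 CPM in siDGUOK replicates 1, 2 and 3. Each siDGUOK library was below each siControl library; the log2 fold change of −0.48 (SE 0.09, edgeR quasi-likelihood test with Benjamini-Hochberg adjusted p = 0.000488) passed the adjusted p and missed the fold change threshold. The light chains SLC7A7 and SLC7A9, better known from kidney and intestine, had under 5 CPM in every library and overlapping groups.

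The SLC1 family takes up anionic and small neutral residues, and 3 of its 4 tested genes were called, against 14.1% of all genes tested. SLC1A5, or ASCT2 (ENSG00000105281.12, chromosome 19, 46774883 to 46788594, minus strand), exchanges glutamine for other neutral residues and was at 342, 275 and 334 CPM in siControl replicates 1, 2 and 3 and 594, 520.2 and 555 CPM in siDGUOK replicates 1, 2 and 3. There was a wide gap between the groups, and the log2 fold change was 0.81 (SE 0.09, edgeR quasi-likelihood test with Benjamini-Hochberg adjusted p = 2.22e-06). Its relative SLC1A4, or ASCT1 (ENSG00000115902.10, chromosome 2, 64988477 to 65023865, plus strand), carries serine, alanine and cysteine and was at 81.8, 60.4 and 65.5 CPM in siControl replicates 1, 2 and 3 and 102, 93.4 and 98.5 CPM in siDGUOK replicates 1, 2 and 3. The siDGUOK libraries lay close together above all siControl libraries, and the log2 fold change of 0.502 (SE 0.12, edgeR quasi-likelihood test with Benjamini-Hochberg adjusted p = 0.00557) was barely past the threshold of 0.5. SLC1A4 stayed past it in 6 of 13 alternatives. Its log2 fold change was 0.41 without siControl replicate 2, 0.47 without siControl replicate 3, 0.45 without siDGUOK replicate 1, 0.49 without siDGUOK replicate 3, 0.49 with DESeq2, 0.47 with shrinkage and 0.49 with RLE scaling, while its adjusted p ran from 0.000263 to 0.0400 over the 13.

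The same family holds the glutamate transporters. SLC1A2, the high-affinity glutamate carrier known from astrocytes and also made in liver (ENSG00000110436.11, chromosome 11, 35251205 to 35420063, minus strand), stood at 43.96, 54.6 and 51.5 CPM in siControl replicates 1, 2 and 3 and 32.3, 18.7 and 19.7 CPM in siDGUOK replicates 1, 2 and 3. The groups did not overlap, siDGUOK replicate 1 lying nearest to the siControl libraries, and SLC1A2 fell with a log2 fold change of −1.09 (SE 0.19, edgeR quasi-likelihood test with Benjamini-Hochberg adjusted p = 0.000473). SLC1A7, a low-level glutamate carrier known from retina, was at 7.42, 13.7 and 11.6 CPM in the siControl libraries and 7.997, 10.7 and 4.83 CPM in the siDGUOK libraries, and these overlapped. SLC1A1, SLC1A3 and SLC1A6 had too few counts to test.

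**Figure D4:**
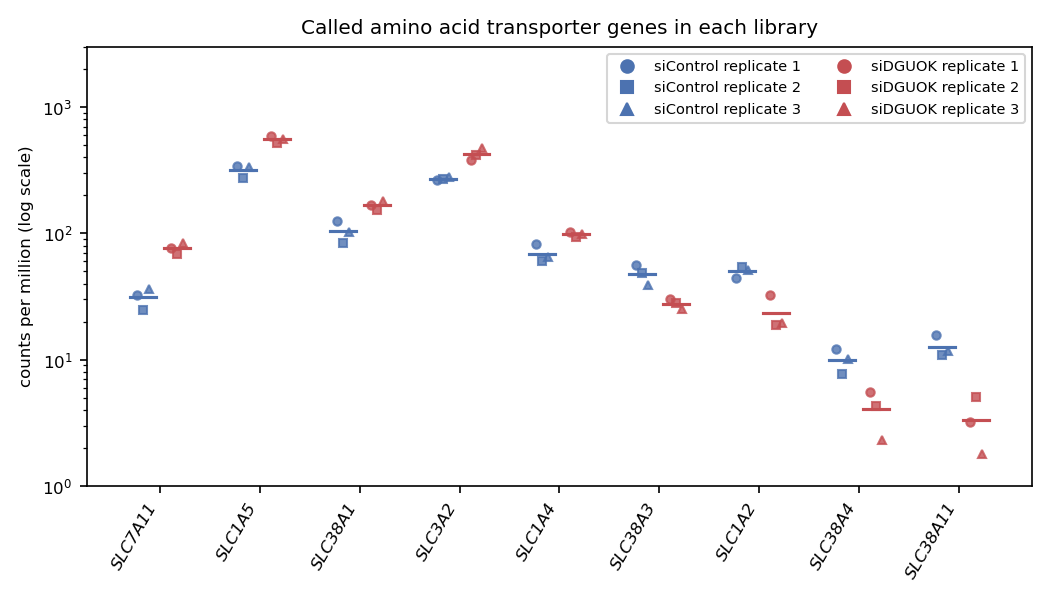
CPM (logarithmic axis) of the 9 called amino acid transporter genes in 3 siControl (blue) and 3 siDGUOK (red) libraries, in order of log2 fold change; symbols mark replicates and lines group means. The 5 genes on the left are higher and the 4 on the right lower in every siDGUOK library than in every siControl library.

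The SLC38 family of sodium-coupled neutral residue carriers had 1 call higher and 3 lower among 10 tested, or 40% against 14.1% of all genes tested, with a median log2 fold change of −0.10. SLC38A1, or SNAT1 (ENSG00000111371.15, chromosome 12, 46183063 to 46270017, minus strand), an importer of glutamine, was at 124, 83.1 and 103 CPM in siControl replicates 1, 2 and 3 and 167, 152 and 181 CPM in siDGUOK replicates 1, 2 and 3. The groups did not overlap, although siControl replicate 1 stood above the other controls, and the log2 fold change was 0.69 (SE 0.12, edgeR quasi-likelihood test with Benjamini-Hochberg adjusted p = 0.000459). SLC38A2, or SNAT2, the carrier known to be induced when amino acids run short, was at 1446, 1319 and 1330 CPM in siControl replicates 1, 2 and 3 and 1814, 1564 and 1495 CPM in siDGUOK replicates 1, 2 and 3. Each siDGUOK library was above each siControl library, but the difference was small, with a log2 fold change of 0.25 (SE 0.08, edgeR quasi-likelihood test with Benjamini-Hochberg adjusted p = 0.0278) and an adjusted p from 0.00544 to 0.2099 over the 13 alternatives, above 0.05 in 3 of them. Without siDGUOK replicate 1 the log2 fold change was 0.15.

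Among the 3 SLC38 genes called lower, SLC38A3 and SLC38A4 are known from liver. Of the 10 hepatocyte markers, 9 were also called lower, and their part in these 2 calls was not tested. SLC38A3, or SNAT3 (ENSG00000188338.14, chromosome 3, 50205246 to 50221486, plus strand), which moves glutamine in either direction across the hepatocyte membrane, was at 55.8, 48.4 and 38.9 CPM in siControl replicates 1, 2 and 3 and 29.99, 28.1 and 24.9 CPM in siDGUOK replicates 1, 2 and 3. There was no overlap, and the log2 fold change was −0.79 (SE 0.16, edgeR quasi-likelihood test with Benjamini-Hochberg adjusted p = 0.00164). SLC38A4, or SNAT4 (ENSG00000139209.15, chromosome 12, 46764761 to 46832408, minus strand), a carrier found mainly in liver, was at 12.2, 7.73 and 10.01 CPM in siControl replicates 1, 2 and 3 and 5.51, 4.31 and 2.3 CPM in siDGUOK replicates 1, 2 and 3. These low levels did not overlap, and the log2 fold change was −1.31 (SE 0.38, edgeR quasi-likelihood test with Benjamini-Hochberg adjusted p = 0.0192). The call was lost without siControl replicate 1 (−1.13, edgeR adjusted p = 0.116), without siControl replicate 3 (−1.31, 0.0719) and without siDGUOK replicate 3 (−1.03, 0.0616), and the adjusted p of edgeR or DESeq2 ran from 0.00766 to 0.116 over the 13 alternatives. DESeq2's shrinkage moved the log2 fold change of SLC38A4 to −0.82. SLC38A4 lies on the minus strand of chromosome 12 at higher coordinates than SLC38A1 and SLC38A2 (46358188 to 46372773), so neighbouring family members on the same strand included 1 gene that rose, 1 that missed the fold threshold and 1 that fell.

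SLC38A11 (ENSG00000169507.9, chromosome 2, 164894354 to 164955525, minus strand), a family member whose substrates are little described, was at 15.5, 10.8 and 11.6 CPM in siControl replicates 1, 2 and 3 and 3.19, 5.05 and 1.79 CPM in siDGUOK replicates 1, 2 and 3. The siDGUOK libraries were all below the siControl libraries, and the log2 fold change of −1.93 (SE 0.38, edgeR quasi-likelihood test with Benjamini-Hochberg adjusted p = 0.00104) was the largest fall among the called transporters. Shrinkage in DESeq2 moved it to −1.22. SLC38A10 was at 201, 175 and 184 CPM in siControl replicates 1, 2 and 3 and 138, 159 and 166 CPM in siDGUOK replicates 1, 2 and 3. These did not overlap, and its log2 fold change of −0.27 (SE 0.09, edgeR quasi-likelihood test with Benjamini-Hochberg adjusted p = 0.0477) missed the fold change threshold, the adjusted p running from 0.0314 to 0.198 over the 13 alternatives and lying above 0.05 in 6 of them. SLC38A9, the lysosomal arginine sensor of mTORC1, was at 23.1, 13.1 and 19.9 CPM in the siControl libraries and 20.6, 24.5 and 21.5 CPM in the siDGUOK libraries, and SLC38A7, a lysosomal glutamine carrier, at 35.5, 38.2 and 39.6 CPM in the siControl libraries and 35.6, 34.8 and 34.3 CPM in the siDGUOK libraries. Both overlapped between groups, as did SLC38A5 and SLC38A6.

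The SLC6 family, which moves neurotransmitters, creatine, taurine, betaine and glycine with sodium and chloride, had no call among 7 tested, where 14.1% of all genes tested were called. SLC6A8, the creatine carrier, was at 391, 454 and 406 CPM in siControl replicates 1, 2 and 3 and 373, 297 and 260.1 CPM in siDGUOK replicates 1, 2 and 3. Each siDGUOK library was below each siControl library, siDGUOK replicate 1 by the least. The log2 fold change of −0.43 (SE 0.11, edgeR quasi-likelihood test with Benjamini-Hochberg adjusted p = 0.00697) passed the adjusted p but not the fold change threshold; without siDGUOK replicate 1 it was −0.60 and past both, with adjusted p values from 5.75e-05 to 0.0481 over the alternatives. Other transporters that missed the test are given as examples chosen after their values were seen. The taurine carrier SLC6A6 was at 55.9, 39.8 and 53 CPM in the siControl libraries and 56.8, 62.1 and 58.3 CPM in the siDGUOK libraries, all siDGUOK values being above the siControl values, with a log2 fold change of 0.25 (SE 0.14, edgeR quasi-likelihood test with Benjamini-Hochberg adjusted p = 0.237). The betaine carrier SLC6A12 was at 7.69, 1.65 and 6.86 CPM in the siControl libraries and 2.16, 0.677 and 1.75 CPM in the siDGUOK libraries. Its groups overlapped through siControl replicate 2, and the log2 fold change of −1.81 (SE 0.65, edgeR quasi-likelihood test with Benjamini-Hochberg adjusted p = 0.0579) missed the test.

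SLC43A1, or LAT3, a sodium-independent carrier of branched-chain residues known from liver, was at 89.7, 90.2 and 82.9 CPM in siControl replicates 1, 2 and 3 and 50.1, 64.5 and 72.8 CPM in siDGUOK replicates 1, 2 and 3. The groups did not overlap, and the log2 fold change of −0.49 (SE 0.13, edgeR quasi-likelihood test with Benjamini-Hochberg adjusted p = 0.0114) lay just short of the threshold. It passed both thresholds without siControl replicate 3 (−0.52), without siDGUOK replicate 2 (−0.51) and without siDGUOK replicate 3 (−0.62). Without siDGUOK replicate 1 it missed both (−0.37, edgeR adjusted p = 0.0590, in a range of 0.00122 to 0.0590 over the 13 alternatives, DESeq2 among them). SLC7A2 passed both thresholds without siControl replicate 2 (−0.54) and without siDGUOK replicate 1 (−0.53). SLC36A1, a proton-coupled carrier of the lysosome, was at 14.5, 9.48 and 18.4 CPM in the siControl libraries and 7.94, 10.5 and 4.97 CPM in the siDGUOK libraries. Its groups overlapped, and its log2 fold change was −0.85 (SE 0.32, edgeR quasi-likelihood test with Benjamini-Hochberg adjusted p = 0.0709). The other transporters that were tested, SLC6A4, SLC6A9, SLC6A11, SLC6A14, SLC36A4, SLC43A2 and SLC43A3, also missed the test with overlapping groups.

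Of the 22 transporter genes not tested, 12 had no count in any library, which at this depth allows up to 0.0287 CPM over the 6 libraries, a floor of 3 counts that covers counting error only. These were mostly carriers known from brain, kidney or intestine, such as the dopamine transporter SLC6A3, the noradrenaline transporter SLC6A2 and the glycine transporter SLC6A5. The other 10, among them the glutamate carriers SLC1A1 and SLC1A3 and the light chains SLC7A8 and SLC7A10, had at most 72 counts each over the 6 libraries.

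Companion lists were read from the same fit to set the transporters beside the pathways they feed. Together they held 105 genes in the table, of which 97 were tested, 7 called higher and 6 lower, or 13.4% against 14.1% of all genes tested, with a median log2 fold change of −0.05. CHAC1 alone among these 97 passed the count filter through the siDGUOK libraries only, and without it 12 of 96 were called, or 12.5%. Without siControl replicate 1 the lists held 7 calls in place of 13. Against the 14.1% of all genes tested, amino acid carriers of other families had no call among 8 and a median of 0.03. The partners and turnover factors of transporters had 1 call lower among 8 (12.5%) and a median of −0.30. That gene was SGK1, a kinase known to hold transporters at the cell surface, at 26.5, 25.5 and 29.3 CPM in siControl replicates 1, 2 and 3 and 16.6, 10.4 and 3.45 CPM in siDGUOK replicates 1, 2 and 3. The siDGUOK libraries were all lower but spread widely, with a log2 fold change of −1.42 (SE 0.38, edgeR quasi-likelihood test with Benjamini-Hochberg adjusted p = 0.0162). Its call was lost on the adjusted p without siControl replicate 1 (−1.43), siControl replicate 2 (−1.46), siControl replicate 3 (−1.36) or siDGUOK replicate 2 (−1.44), and without siDGUOK replicate 1 the log2 fold change was −2.0011 and without siDGUOK replicate 3 −1.0038. The adjusted p of SGK1, from edgeR or DESeq2, ran from 1.74e-07 to 0.149 over the 13 alternatives.

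In the GCN2 and ATF4 arm, 4 of 18 tested genes were called higher and none lower, with a median log2 fold change of 0.27. That was 22.2%, against 14.1% of all genes tested. Without CHAC1, 3 of 17 were called (17.6%) and the median was 0.26. With CHAC1 included, the groups did not overlap for 14 of 18 (77.8%), 12 higher and 2 lower, against 36% of all genes tested. At the adjusted p alone 7 of 18 passed (38.9%), 6 higher and 1 lower, against 19.7% of all genes tested. EIF2AK4, the kinase GCN2 itself, was at 115, 115 and 103 CPM in siControl replicates 1, 2 and 3 and 83.8, 76.7 and 81.2 CPM in siDGUOK replicates 1, 2 and 3. Every siDGUOK library was below every siControl library, and its log2 fold change of −0.46 (SE 0.10, edgeR quasi-likelihood test with Benjamini-Hochberg adjusted p = 0.00282) missed the fold change threshold. ATF4, read like EIF2AK4 and ASNS after the values were seen, was at 441, 483 and 481 CPM in siControl replicates 1, 2 and 3 and 579, 624 and 597 CPM in siDGUOK replicates 1, 2 and 3. Its groups did not overlap, and its log2 fold change of 0.36 (SE 0.07, edgeR quasi-likelihood test with Benjamini-Hochberg adjusted p = 0.00154) missed the fold change threshold on the other side. SESN2, read in the same way, was higher in every siDGUOK library than in every siControl library. It also missed the fold change threshold, at 0.48 (edgeR quasi-likelihood test with Benjamini-Hochberg adjusted p = 0.0258). DDIT4, an inhibitor of mTORC1 signalling, rose, at 181, 206 and 198 CPM in siControl replicates 1, 2 and 3 and 382, 378 and 373 CPM in siDGUOK replicates 1, 2 and 3. Replicates of each group lay close together, with a log2 fold change of 0.95 (SE 0.08, edgeR quasi-likelihood test with Benjamini-Hochberg adjusted p = 6.30e-08). ATF3, a stress-induced factor, rose from 43.4 ± 3.39 to 65.1 ± 7.59 CPM and VLDLR, a lipoprotein receptor, from 25.1 ± 5.31 to 39.5 ± 4.02 CPM (SD, n = 3). Their log2 fold changes were 0.59 and 0.66, ATF3 losing its call without siDGUOK replicate 2 (0.49) and VLDLR without siControl replicate 1 (0.51), siControl replicate 3 (0.65) or siDGUOK replicate 1 (0.59). CHAC1, which degrades glutathione, had 0 counts in the siControl libraries and 15, 16 and 50 in siDGUOK replicates 1, 2 and 3. Against a floor of 3 counts over the group it was at least 22.9-fold higher, a bound that rests largely on siDGUOK replicate 3. Its call was lost without siControl replicate 1, 2 or 3 (edgeR adjusted p = 0.0667, 0.0551 and 0.0651) and without siDGUOK replicate 1 (0.0548) or 3 (0.105). DESeq2's shrinkage also ended it, at a log2 fold change of 0.49, and the adjusted p of edgeR or DESeq2 ran from 0.00112 to 0.105 over the 12 alternatives that gave it a value. ASNS, asparagine synthetase and a well-known target of ATF4, stayed under 4 CPM in every library, at 2.72, 1.49 and 2.29 CPM in the siControl libraries and 3.404, 3.08 and 2.95 CPM in the siDGUOK libraries, and missed the test.

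Among genes for lysosomal amino acid sensing by mTORC1, 2 of 37 tested were called higher and 1 lower, or 8.11% against 14.1% of all genes tested, with a median of −0.07. SESN3, a member of the leucine-sensing sestrin family, was at 2.46, 3.52 and 3.81 CPM in siControl replicates 1, 2 and 3 and 5.67, 8.002 and 12.4 CPM in siDGUOK replicates 1, 2 and 3. The groups did not overlap at these low levels, and the log2 fold change was 1.42 (SE 0.40, edgeR quasi-likelihood test with Benjamini-Hochberg adjusted p = 0.0155). LAMTOR3, a subunit of the Ragulator scaffold, rose from 34.5 ± 3.74 to 50.4 ± 2.26 CPM (log2 fold change 0.55), and FNIP2, a folliculin partner, fell from 34.2 ± 3.15 to 22.95 ± 5.62 CPM (log2 fold change −0.57; SD, n = 3). Some alternatives ended each of these calls. SESN3 lost its call without siControl replicate 1 (1.25) or siDGUOK replicate 3 (1.06) and moved to 0.84 with DESeq2's shrinkage. LAMTOR3 lost it without siControl replicate 1 (0.46) or siDGUOK replicate 1 (0.50) and with DESeq2's shrinkage (0.497), and FNIP2 without siControl replicate 1 (−0.51), 2 (−0.56) or 3 (−0.64) or siDGUOK replicate 1 (−0.49) or 2 (−0.47).

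Glutathione synthesis and cystine use, the pathway that cystine from SLC7A11 feeds, had 2 calls higher and 1 lower among 15 tested, or 20% against 14.1% of all genes tested, with a median of 0.16. Without CHAC1 it had 2 calls among 14 (14.3%) and a median of 0.08. Of the enzymes that split extracellular glutathione, GGT5 rose and GGT1 fell. GGT5 was at 5.23, 6.23 and 10.5 CPM in siControl replicates 1, 2 and 3 and 19.2, 29.6 and 32.1 CPM in siDGUOK replicates 1, 2 and 3. GGT1, which has near-identical copies that make its counts uncertain, was at 72.2, 90.3 and 95.1 CPM in siControl replicates 1, 2 and 3 and 47.4, 48.9 and 41.9 CPM in siDGUOK replicates 1, 2 and 3. In neither gene did the groups overlap, with a log2 fold change of 1.90 (SE 0.28, edgeR quasi-likelihood test with Benjamini-Hochberg adjusted p = 5.90e-05) for GGT5 and −0.90 (SE 0.13, edgeR quasi-likelihood test with Benjamini-Hochberg adjusted p = 5.38e-05) for GGT1. CHAC1 is the other call of the list.

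Of the glutamine, glutamate and asparagine enzymes, 3 of 14 tested were called (21.4%), all lower, where 14.1% of all genes tested were called and 6.68% called lower, with a median of −0.24. GLUD1, the mitochondrial glutamate dehydrogenase, was at 499, 491 and 503 CPM in siControl replicates 1, 2 and 3 and 310.3, 262 and 268 CPM in siDGUOK replicates 1, 2 and 3. A wide gap separated the groups, with a log2 fold change of −0.83 (SE 0.08, edgeR quasi-likelihood test with Benjamini-Hochberg adjusted p = 5.09e-07); copies of this gene elsewhere in the genome make its counts uncertain. ASRGL1, an asparaginase, fell from 43.7 ± 5.56 to 19.6 ± 1.88 CPM, and ALDH18A1, which makes the proline precursor from glutamate, from 155 ± 8.16 to 103 ± 6.101 CPM (SD, n = 3). Their log2 fold changes were −1.16 and −0.59, with no overlap between groups.

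**Figure D5:**
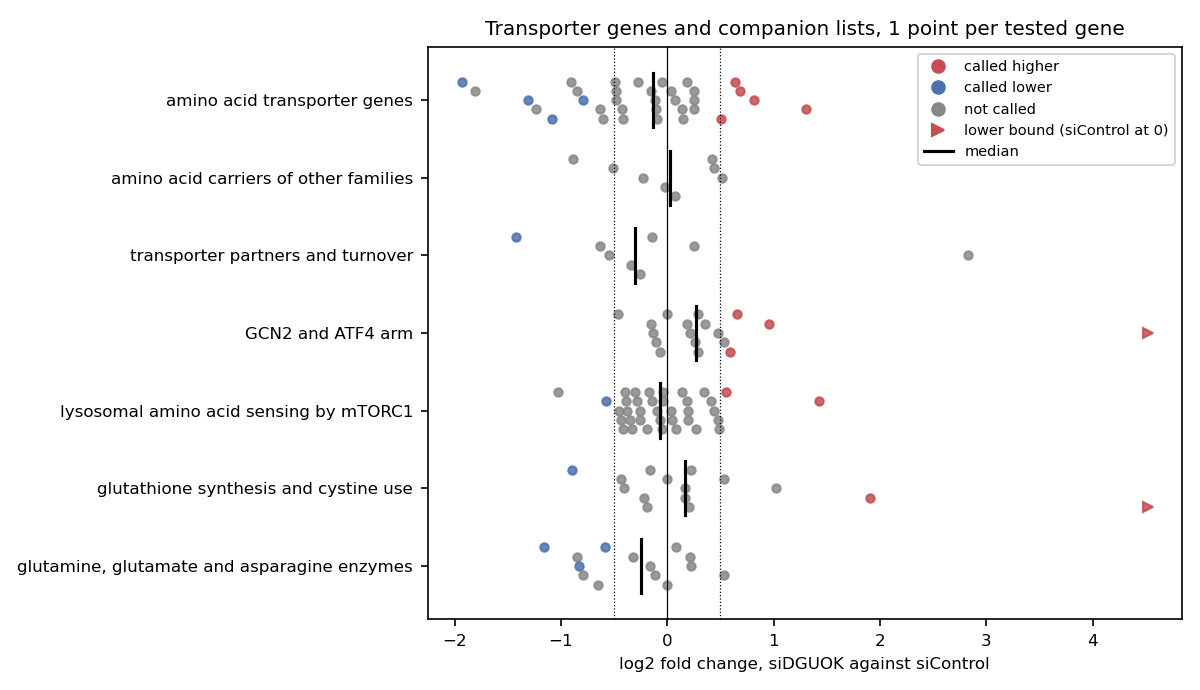
Log2 fold change, siDGUOK against siControl, of each tested gene among the amino acid transporters and the 6 companion lists; red is called higher, blue called lower, grey not called, black bars are medians, dotted lines mark the threshold of 0.5 and the triangle marks the lower bound of CHAC1, which has no siControl count and is in 2 of the lists. The transporter genes spread to both sides, the median of the GCN2 and ATF4 arm lies at 0.27 and that of the glutamine, glutamate and asparagine enzymes at −0.24.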

How the data were processed

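The deposited values are whole gene counts that the authors made from paired-end reads, aligned with STAR 2.6.1 to GRCh38 and summed by featureCounts 1.6.5, without normalization; the submitters' notes also list Bowtie 1.1.2 without its role. At its defaults featureCounts ignores strand and omits reads with several alignments or on several genes. The library kit was not stated.

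Counts were read in R 4.3.3. In edgeR 4.0.16 they passed through filterByExpr at a minimum count of 10, were scaled by TMM and were fitted on condition alone with robust quasi-likelihood, and p-values were adjusted by Benjamini-Hochberg over every gene tested. TPM was computed over protein-coding genes from union exon lengths of Gencode 44. The paper names an earlier Gencode release for the alignment, so exon lengths and shared exon bases may differ from those used in counting. SE was taken as the absolute log2 fold change divided by the root of F. Transporters named by rule were those called, those past the adjusted p alone and the 10 with the highest mean TPM; companion genes were named by rule when called. Members, lists and motifs were chosen with earlier results of these data known. Alternatives were DESeq2 1.42.0 with and without shrinkage, RLE and upper-quartile scaling, no filter, a mean CPM of at least 1, the replicate number as a block, other call rules and each library left out in turn. Protein sequences were not analysed here. The scripts were tested on simulated data.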

Additional observations from a re-analysis of the deposited data

How the results depend on the processing

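Over all genes, 2041 calls became 1859 (DESeq2 with shrinkage) to 2172 (no filter), 1704 to 1935 with a library left out and 819 with an absolute log2 fold change above 1. The 9 transporter calls became 8 to 11, also with a library left out, 14 at the adjusted p alone and 4 above a log2 fold change of 1. The 13 companion calls became 7 (without siControl replicate 1) to 16 (without siDGUOK replicate 3), 24 at the adjusted p alone and 5 above 1. Over the 29 genes named by rule, 333 of 376 alternative values kept their direction and stayed called or not called, 35 in 9 genes lost a call, 7 in 3 genes (SLC6A8, SLC7A2, SLC43A1) gained one, and the log2 fold change of SLC7A1 turned to −0.0364 without siDGUOK replicate 1, against 0.2027 without siDGUOK replicate 2 (neither past the test); the cause was not tested. Among genes past the adjusted p but not called, it rose above 0.05 in 3 alternatives for SLC38A2, 6 for SLC38A10 and 1 for SLC43A1. CHAC1 had no value at a mean CPM of at least 1. With the replicate block, calls were 2077 over all genes, 11 among transporters and 14 in the companion lists, with CHAC1 not called (adjusted p = 0.0564) and SLC43A1 called (−0.5038); libraries of the same number correlated at 0.0240, 0.0166 and −0.00224 after group means were removed, and those of replicate 3 did not correlate best with their own number. Without the count filter 44 transporters were tested and 11 called; the 12 without a count could not be compared at this depth.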
